A study of Mus musculus with 24 samples.

Results

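The small leucine-rich proteoglycans are a family of secreted matrix proteins, and 9 of their genes, Ogn, Dcn, Lum, Bgn, Fmod, Aspn, Prelp, Omd and Podn, were followed here among the 23420 genes of each table. They were found by exact gene symbol, and all 9 were present and passed the filter on low values in all 4 comparisons. The set was chosen on mutant-to-control values of these same 4 comparisons, so those differences, and any calls among them, are given as a description and do not count as a test.

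RNA was sequenced from the left lung lobe of 24 mice at postnatal day 2 (P2) or day 5 (P5). At each age 3 Sox9Cre/+; Vangl2f/f lungs were set beside 3 control lungs, and 3 Sox9Cre/+; Ror2f/f lungs beside 3 other controls, which makes 8 groups of 3 with no shared control. The control lungs are labelled WT, and those of both Vangl2 comparisons are titled as controls for Vangl1/2. For 2 of the mutant groups the genotype label names the other gene (Ror2f/f for Vangl2 mutants at P5, Vangl2f/f for Ror2 mutants at P2), and the titles were followed. The Sox9 promoter drives the recombinase Cre in the distal epithelium of the developing lung, and Sox9 is also active in airway cartilage. The sequenced lobe holds every cell type, including the fibroblasts and other mesenchymal cells that are the usual source of these proteoglycans. In such bulk RNA, fewer cells of a type and less RNA per cell cannot be told apart.

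In the 21 lungs whose read number could be recovered, 13823693 to 21546673 reads fell on genes. Values are normalized counts, that is reads divided by a size factor that scales the 6 lungs of a table to each other. Control replicate 1 of the P5 Ror2 comparison held 0 for 94.7% of the genes on chromosomes 5 to 9 and X, and was set to missing there, so Bgn on the X chromosome had 2 controls in that comparison. Vangl2 itself was lower in every mutant than in every control at P2 (249, 302 and 281 against 241, 224 and 173) and at P5 (369, 314 and 292 against 169.5, 148 and 166), whereas Ror2 overlapped between the groups in both Ror2 comparisons. Lung epithelial markers (9 genes summed; 7 in the P5 Ror2 comparison) lay between 214800 and 638376 in all lungs, and cartilage markers between 384 and 1076. Y-linked genes (4 summed) were expressed in 0 of 3 controls and 1 of 3 mutants of the P5 Vangl2 comparison. In the P5 Ror2 comparison they were expressed in 3 of 3 mutants and in 1 of the controls. Control replicate 1 there held 0 for every chromosome X gene checked and for the 1 Y gene checked, so its sex could not be read. Sex and genotype were thus partly confounded at P5.

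Small leucine-rich proteoglycans share a curved stack of leucine-rich repeats, flanked by a cluster of cysteines on the amino-terminal side, and many carry chondroitin, dermatan or keratan sulfate chains. They coat collagen fibrils, set how thick and how regularly spaced those fibrils become, and hold growth factors such as TGF-beta in the matrix. In the lung they are laid down in the interstitium, around airways and vessels and in the pleura, where they contribute to tissue elasticity.

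The family is divided into classes, and the spacing of the amino-terminal cysteines is a feature on which the division rests. The coding stretch from the first to the last of these 4 cysteines is shown for each member, so that the classes by which the results are ordered can be read from the genes themselves. Each stretch lies within 1 coding exon of a transcript of the GENCODE annotation on GRCm38 and is written 5′ to 3′ on the coding strand, with the cysteine codons in capitals.
Dcn: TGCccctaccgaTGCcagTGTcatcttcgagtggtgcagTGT
Bgn: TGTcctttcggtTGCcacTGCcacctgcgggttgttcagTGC
Aspn: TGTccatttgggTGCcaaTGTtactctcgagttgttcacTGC
Lum: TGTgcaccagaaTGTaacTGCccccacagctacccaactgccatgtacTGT
Fmod: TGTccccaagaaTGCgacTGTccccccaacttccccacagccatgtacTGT
Prelp: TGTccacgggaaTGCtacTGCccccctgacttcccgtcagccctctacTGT
Omd: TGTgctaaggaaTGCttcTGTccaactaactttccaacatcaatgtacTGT
Ogn: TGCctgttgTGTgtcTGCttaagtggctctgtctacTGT
Podn: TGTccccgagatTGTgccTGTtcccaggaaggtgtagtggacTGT
In Dcn, Bgn and Aspn, of class I, the numbers of codons between the cysteines are 3, 1 and 6. Lum, Fmod, Prelp and Omd, of class II, have 3, 1 and 9. Ogn, of class III, has 2, 1 and 6, and Podn, which stands apart from these classes, has 3, 1 and 7.

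Of the 9 genes, 7 lie in small clusters of the same family. On chromosome 13, Aspn (chr13:49551865-49551906 for the stretch above), Omd (chr13:49589659-49589709) and Ogn (chr13:49615566-49615604) follow each other on the plus strand, with gaps of 14.9 kb and 15.2 kb between genes, next to the related Ecm2. On chromosome 10, Dcn (chr10:97483507-97483548) and Lum (chr10:97568353-97568403) are neighbours on the plus strand, 47.0 kb apart, and are followed by Kera and Epyc. On chromosome 1, Prelp (chr1:133915151-133915201, minus strand) and Fmod (chr1:134040449-134040499, plus strand) are 116 kb apart. The annotation placed 0 other protein-coding genes between these neighbours. Bgn (chrX:73490979-73491020, plus strand) and Podn (chr4:108027042-108027086, minus strand) lie on chromosomes X and 4.

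Biglycan was by far the most abundant family member in these lungs. Levels were expressed as RPM per kilobase of exon, which scales the reads of each lung to a common total and each gene to its length; the total was taken over genes outside chromosomes 5 to 9 and X so that the incomplete lung could be kept. On that scale the mean of the control groups was 868 for Bgn at P2 and 1080.3 at P5. Aspn (140 and 207) and Ogn (107 and 150) came next, with a difference beyond the spread of the lungs in the P2 Vangl2 controls (139 ± 1.83 and 80.2 ± 6.89, SD, n = 3) but not in the P2 Ror2 controls (140 ± 14.2 and 134 ± 27.8). Dcn (64.7 and 35.3), Fmod (49.3 and 59.8) and Prelp (33.3 and 53.6) formed a middle group without a fixed order. In the P5 controls Prelp (52.9) was highest of these in the Vangl2 table, ahead of Dcn (43.4) and Fmod (41.5), and Fmod (78.0) in the Ror2 table, ahead of Prelp (54.3) and Dcn (27.1). Podn (24.1 and 15.5) and Lum (9.45 and 5.13) were lower, and Omd (0.415 and 0.565) was lowest. Bgn alone supplied between 54.3% and 72.4% of the normalized counts of the 9 genes in the 23 lungs where it was read.

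**Figure D1:**
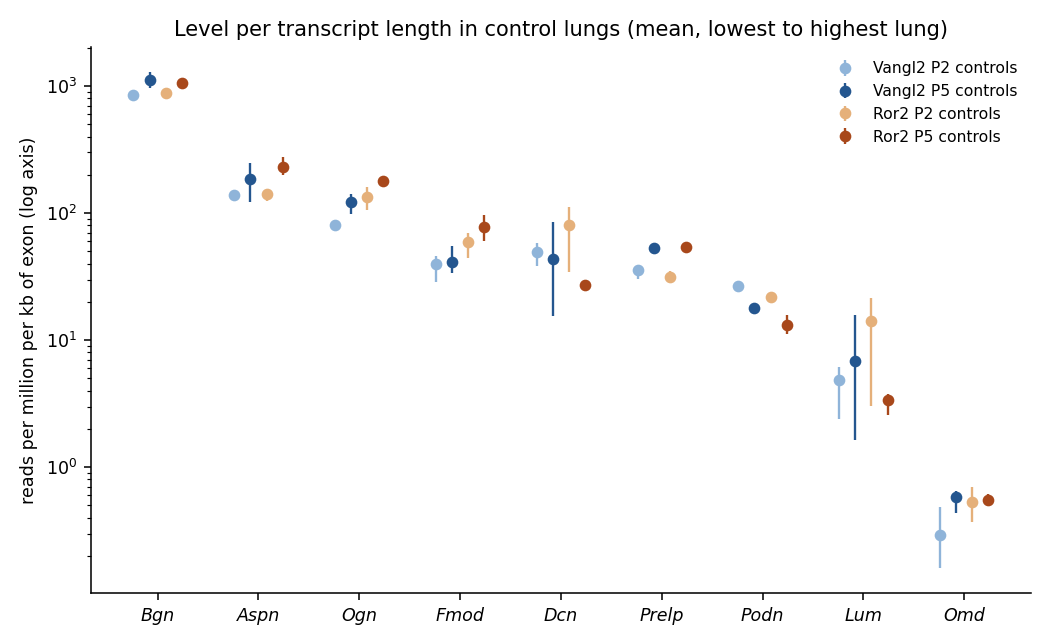
Level of each member in control lungs, in RPM per kb of exon on a log axis; points are the means of 3 control lungs (2 for Bgn in the P5 Ror2 comparison) and lines run from the lowest to the highest lung. Bgn (868 at P2 and 1080.3 at P5) stands highest and Omd (0.415 and 0.565) lowest in all 4 control groups, and the long lines of Dcn and Lum in the P5 Vangl2 and P2 Ror2 controls show lungs of the same group that differ several-fold.

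Between the 2 ages the control levels of 3 members did not overlap. Prelp, which anchors basement membranes to the underlying collagen, ranged from 102 to 139 RPM in the 6 P2 controls and from 171 to 208 in the 6 P5 controls, with a ratio of medians of 1.64. Bgn ranged from 1945 to 2323 at P2 and from 2334 to 3108 in 5 controls at P5. Podn went the other way, from 69.0 to 89.0 at P2 and from 36.2 to 58.9 at P5, with a ratio of medians of 0.686. Of all genes tested in the 4 tables, 2.03% were higher at P5 without overlap and 5.39% lower, beside 2 and 1 of the 9 members. Age was compared across tables that were normalized separately, and an age effect cannot be told apart from a difference between tables.

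The 9 genes went in mixed directions in every comparison. The median log2 difference of the 9 members between mutant and control was 0.017 in Vangl2 mutants at P2, -0.16 in Vangl2 mutants at P5, 0.014 in Ror2 mutants at P2 and 0.0095 in Ror2 mutants at P5, and that of all genes tested was 0.0012, 0.0031, -0.0059 and 0.0042. With limma across all genes (adjusted p under 0.05), 0 of 9 members were called in Vangl2 mutants at P2, where 2.09% of genes were called lower and 1.5% higher. In Vangl2 mutants at P5, 0 of 9 were called, with 0.0287% of genes called lower and 0.534% higher. In Ror2 mutants at P2, 0 of 9 were called, with 0% of all 17541 genes called lower and 0% higher. In Ror2 mutants at P5, Ogn was called lower, with 0.064% of genes called lower and 0.0582% higher. Because these contrasts chose the members, the call of Ogn is only a description. At an unadjusted p under 0.05 limma took in 1, 1, 2 and 2 members and 3921, 3270, 3380 and 3160 genes in these comparisons. On the recovered reads of the P2 lungs, edgeR and DESeq2 also called 0 members, while edgeR called 641 and 0 genes and DESeq2 2001 and 794 genes in the Vangl2 and Ror2 comparisons.

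**Figure D2:**
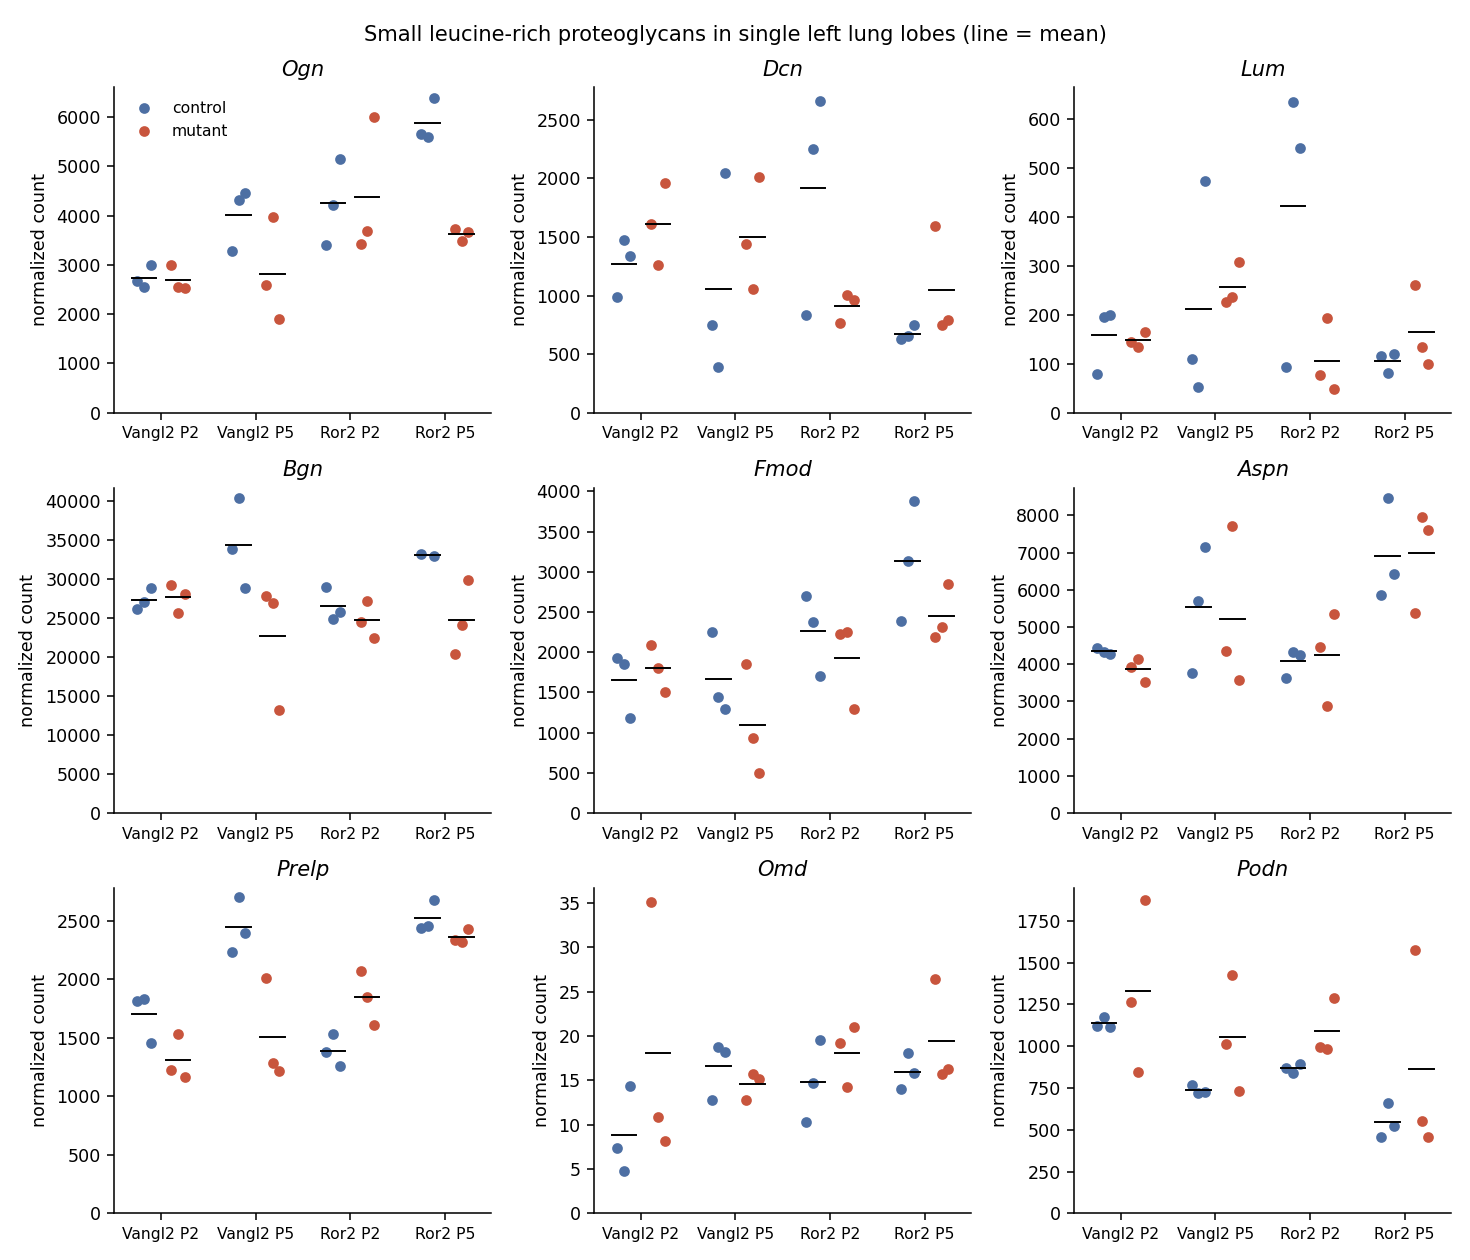
Normalized count of each member in each of the 24 left lobes (23 for Bgn), with controls in blue, mutants in red and the group mean as a line; each comparison was normalized separately. Ogn in the P5 Ror2 comparison is the plainest separation, with mutants at 3480 to 3735 and controls from 5595, while Dcn and Lum spread widely within the control groups.

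Counted by lungs, the groups of a member did not overlap in 9 of the 36 pairs of member and comparison. In Vangl2 mutants at P2 only Aspn was separate, on the lower side, where 14.9% of all genes were lower without overlap and 14.6% higher. In Vangl2 mutants at P5, Bgn and Prelp were lower in every mutant than in every control (12.5% of all genes; 13.2% were higher). In Ror2 mutants at P2, Prelp and Podn were higher (13.4% of all genes; 12.2% were lower). In Ror2 mutants at P5, Ogn, Bgn and Prelp were lower (14.3% of all genes) and Dcn was higher (15.6%). Because these contrasts chose the members, nothing is read from the counts.

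**Figure D3:**
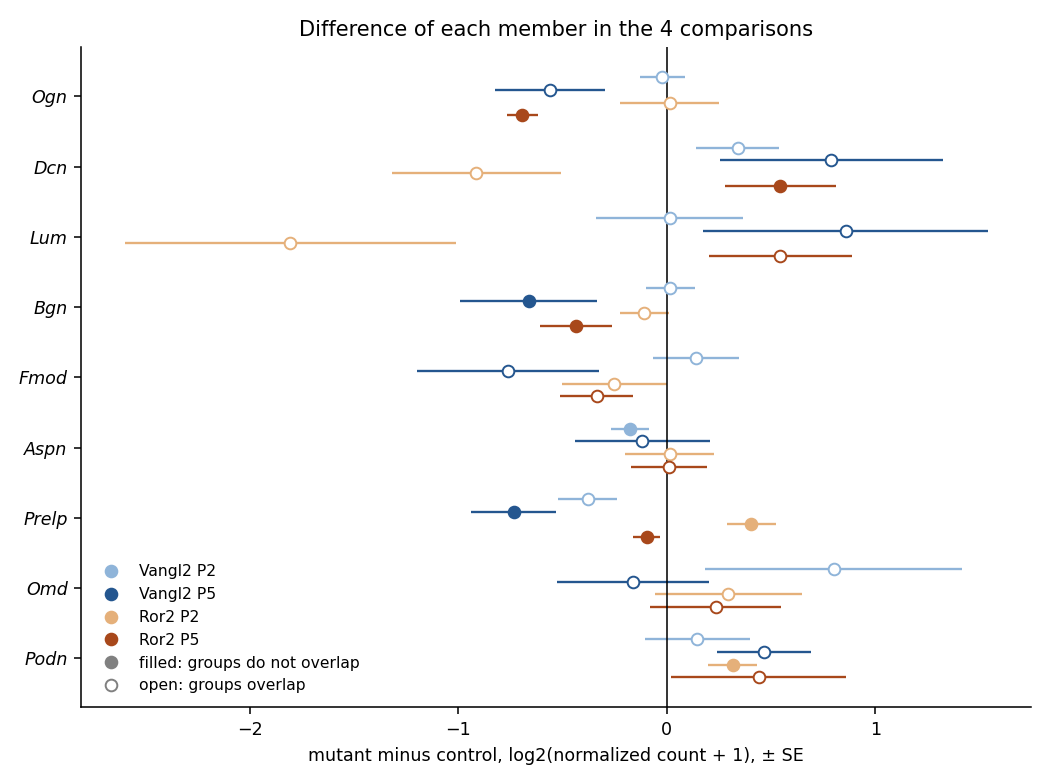
Mutant minus control on the log2(normalized count + 1) scale for each member in the 4 comparisons, with standard errors from limma; filled points mark groups that do not overlap. Bgn, Fmod and Ogn lie left of 0 at P5 in both mutants, Podn lies right of 0 in all 4 comparisons, and Dcn and Lum both lie left of 0 in the P2 Ror2 and right of 0 in the P5 comparisons.

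In class I, biglycan was below all controls in every P5 mutant of either gene. Bgn binds collagen and TGF-beta and, when set free from the matrix, Toll-like receptors. At P5 its normalized counts were 33860.0, 40311 and 28773 in the control lungs and 27852, 26933 and 13221 in the mutant lungs of the Vangl2 comparison, a log2 difference of -0.66 ± 0.33 (SE). The groups did not overlap, but mutant replicate 3 was far below the other two, and without it the difference was -0.31. In the P5 Ror2 comparison the counts were 33179.7 and 32947 in the 2 usable controls and 20324, 24039.9 and 29905 in mutants, a difference of -0.44 ± 0.17 (SE) that stayed between -0.58 and -0.30 when any lung was left out. At P2 the groups overlapped, with differences of 0.017 in Vangl2 and -0.11 in Ror2 mutants.

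Decorin, which organizes fibrils of type I collagen and sequesters TGF-beta, varied more from lung to lung than the other class I members, with a residual SD between the 62.4th and 91.5th percentile of all genes in the 4 comparisons. In the P2 Ror2 comparison Dcn measured 831, 2254 and 2665 in the control lungs and 769.7, 1005 and 964 in the mutant lungs. Controls 2 and 3 stood above all other lungs and control 1 stood among the mutants, so the groups overlapped despite a difference of -0.91 ± 0.41 (SE), which was -1.43 without control replicate 1 and -0.59 without control replicate 3. In the P5 Ror2 comparison it measured 628, 652 and 748 in the control lungs and 1594, 751 and 794 in the mutant lungs, which did not overlap, although mutants 2 and 3 exceeded the highest control only slightly. Without mutant replicate 1 the difference of 0.54 became 0.20. In the P5 Vangl2 comparison the 3 controls alone spanned 5.27-fold (747, 388 and 2043) and the mutants (1438, 1059 and 2009.7) all lay within that span. At P2 in Vangl2 mutants the difference was 0.34 ± 0.20 (SE) with overlap, and 0.17 without control replicate 1.

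Asporin, a class I protein that carries no sulfated chain and binds TGF-beta and collagen, stayed closest to its controls, with differences between -0.18 and 0.014. Aspn in the P2 Vangl2 comparison measured 4442, 4342 and 4272 in the control lungs and 3923, 4136 and 3523 in the mutant lungs, lower in every mutant by a small margin (-0.18 ± 0.093, SE; -0.11 without mutant replicate 3). Its differences in the other comparisons were -0.12 in Vangl2 mutants at P5, 0.014 in Ror2 mutants at P2 and 0.0095 in Ror2 mutants at P5, all with overlapping groups.

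In class II, Prelp was below all controls in every Vangl2 mutant at P5 and above them in every Ror2 mutant at P2. At P5 in the Vangl2 comparison it measured 2238, 2704 and 2400.4 in the control lungs and 2013, 1289 and 1215 in the mutant lungs, a log2 difference of -0.73 ± 0.20 (SE) without overlap. At P2 in the same mutant the counts were 1816, 1832 and 1459 against 1229, 1534 and 1168, a difference of -0.38 ± 0.14 (SE), and overlapped through control replicate 3 and mutant replicate 2. The P2 Ror2 mutants had more, with 1379.9, 1529 and 1260.4 against 2070.2, 1854 and 1615 and a difference of 0.41 ± 0.12 (SE). By P5 the Ror2 mutants were slightly below their controls, 2438, 2453 and 2680.2 against 2333, 2324 and 2428, a difference of -0.095 ± 0.065 (SE), or -0.051 without control replicate 3.

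Fibromodulin, which binds collagen and the enzyme that cross-links it, overlapped between the groups in all 4 comparisons. Fmod at P5 in the Vangl2 comparison measured 2257, 1438 and 1293 in the control lungs and 1852, 937 and 495 in the mutant lungs. Mutants 2 and 3 were below every control and mutant 1 was not, giving -0.76 ± 0.44 (SE), or -0.29 without mutant replicate 3 and -1.24 without mutant replicate 1. Within same-numbered pairs it was lower in 3 of 3. In the P5 Ror2 comparison it measured 2393, 3132 and 3877 in the control lungs and 2186, 2315 and 2854 in the mutant lungs (-0.34 ± 0.18, SE), or -0.17 without control replicate 3 and -0.52 without control replicate 1. At P2 the differences were 0.14 and -0.25 in Vangl2 and Ror2 mutants.

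Lumican, a keratan sulfate proteoglycan of fibrous tissue, varied widely from lung to lung. Lum in the P2 Ror2 comparison measured 92.8, 635 and 540.3 in the control lungs and 76.6, 192 and 49.4 in the mutant lungs, and the difference of -1.81 ± 0.79 (SE) was the furthest from 0 among the 36 although the groups overlapped through control replicate 1. Its residual SD stood between the 81.0th and 98.4th percentile of all genes across the 4 comparisons. At P5 the differences pointed the other way, 0.86 ± 0.68 in Vangl2 and 0.55 ± 0.34 (SE) in Ror2 mutants, again with overlap. The Vangl2 difference was 0.15 without control replicate 2 and 1.73 without control replicate 3, and the Ror2 difference 0.16 without mutant replicate 1 and 0.84 without mutant replicate 3.

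Osteomodulin, named for its place in bone, was barely expressed. Omd lay between 4.74 and 35.1 normalized counts in the 24 lungs, and its groups overlapped in all 4 comparisons. The highest value, 35.1, came from mutant replicate 1 of the P2 Vangl2 comparison, without which the difference there was 0.20 in place of 0.80.

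Osteoglycin, of class III, a fibril-associated protein also called mimecan, was lower in every P5 Ror2 mutant. In the P5 Ror2 comparison Ogn measured 5651, 5595 and 6382 in the control lungs and 3735, 3479.8 and 3678 in the mutant lungs. All 3 mutants lay close together and far below the controls, a log2 difference of -0.69 ± 0.075 (SE), equal to a drop to 0.619 of the control level. When single lungs were left out the difference stayed between -0.73 and -0.63, but without control replicate 1, 2 or 3 or mutant replicate 2 it no longer passed the threshold across all genes. At P5 in the Vangl2 comparison it measured 3276, 4314 and 4455 in the control lungs and 2589, 3982 and 1904 in the mutant lungs, where mutants 1 and 3 were below every control and mutant 2 was among them (-0.56 ± 0.26, SE). Without mutant replicate 3 that difference was -0.31, and without mutant replicate 2 it was -0.84. Within same-numbered pairs Ogn was lower in 3 of 3. At P2 the groups overlapped, with differences of -0.021 in Vangl2 and 0.014 in Ror2 mutants.

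Podocan, first described in scarred kidney and known to restrain smooth muscle growth, was uniform among controls, which lay within 1.05- to 1.06-fold of each other in all but the P5 Ror2 comparison. Podn in the P2 Ror2 comparison measured 868, 841 and 892 in the control lungs and 995, 985 and 1287 in the mutant lungs, higher in every mutant by 0.32 ± 0.12 (SE), or 0.19 without mutant replicate 3. In the P5 Vangl2 comparison the controls of 765, 722 and 727 stood beside mutants of 1011, 1425 and 735, higher in 3 of 3 pairs though by only 0.017 in pair 3, with a difference of 0.47 ± 0.23 (SE) that was 0.22 without mutant replicate 2 and 0.70 without mutant replicate 3. In the P2 Vangl2 comparison controls of 1122, 1176 and 1118 stood beside mutants of 1262, 846 and 1875, with overlap. In the P5 Ror2 comparison the mutants measured 1573, 552 and 459 and the controls 457, 663 and 526, and the difference turned from 0.44 to -0.11 without mutant replicate 1.

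In the P5 Vangl2 comparison same-numbered lungs deviated from their group means together, with correlations of 0.38, 0.34 and 0.24 over all genes, so the members were also read within pairs. Ogn, Bgn, Fmod and Prelp were lower in the mutant of 3 of 3 pairs and Podn was higher in 3 of 3, while Dcn, Lum, Aspn and Omd went both ways. The groups of Bgn and Prelp did not overlap, so for them any pairing gives 3 of 3. These contrasts also chose the members, so nothing is read from the counts of pairs. Bgn differed by -0.28, -0.58 and -1.12 in pairs 1 to 3, Fmod by -0.29, -0.62 and -1.38, Prelp by -0.15, -1.07 and -0.98 and Ogn by -0.34, -0.12 and -1.23 on the log2 scale. Pair 3 was the furthest apart for Ogn, Bgn and Fmod. Dcn and Lum were higher in pairs 1 and 2, by 0.94 and 1.45 and by 1.02 and 2.17, and lower in pair 3, by -0.023 and -0.62.

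Libraries that stood apart for these genes also stood apart for marker lists. Mutant replicate 1 of the P5 Ror2 comparison, the highest lung of that comparison for Dcn, Lum, Podn and Omd, had a sum of 7403 over 6 mesothelial markers, against 2495 to 2970 in the other lungs, and of 15099 over 6 cardiac muscle markers, against 1075 to 6056. Mutant replicate 3 of the P5 Vangl2 comparison had the lowest Ogn, Bgn, Fmod, Aspn and Prelp of that comparison and the lowest sums over 14 alveolar and matrix fibroblast markers (105061; 133468 to 195792 in the other lungs) and 13 myofibroblast and smooth muscle markers (28586; 43094 to 65297). That lung was also lowest for adventitial fibroblast (23070) and endothelial (37625) markers and for lists of collagen fibril partners (215449) and glycosaminoglycan assembly (20939). Its sums for proteoglycan cleavage (19373) and growth factor and receptor partners (30848) were lowest too, while its mesothelial sum (9540) was the highest. The part of these cells in the differences of the 9 genes was not tested.

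Lum and Dcn varied together from lung to lung. With each lung expressed as its log2 difference from the controls of its own table, Dcn was the nearest to Lum among the 16722 genes tested in all tables, with a root mean square difference of 0.538 over 23 lungs, against 1.09 for Lum from its controls. Lum was only the 140th nearest to Dcn, whose nearest genes were Nov, Sfrp1 and Dnahc1. The ratio of Dcn to Lum nevertheless moved between 3.55 in control replicate 2 and 19.5 in mutant replicate 3 of the P2 Ror2 comparison. In that comparison the controls rich in both, replicates 2 and 3, had cardiac muscle sums of 21097 and 18021, against 4949 in control replicate 1 and 5180 to 10817 in mutants. In the P2 Vangl2 comparison the order was not the same, since control replicate 1 had the lowest Dcn and Lum and the highest cardiac sum, 12602. Among P5 Vangl2 controls, replicate 3 was highest for Dcn, Lum and the cardiac sum (5986, against 2247 and 1713). Among P5 Ror2 controls, replicate 1 had the lowest Dcn but a cardiac sum of 5117, against 1075 and 4997 in replicates 2 and 3. The part of cardiac muscle was not tested. The adventitial fibroblast sum differed little among the 3 P2 Ror2 controls (32258 to 33615), and in the mutants of that comparison it was lower (25015 to 29926). Of its 13 markers, 3 were higher and 3 lower in these mutants at an unadjusted p under 0.05 in limma. Ebf2 is on that list but was picked for its likeness to Lum, so it does not stand for the list. It stood at -1.69, 1.32 and 0.37 from the control mean in control replicates 1 to 3. Lum stood at -1.76, 1.00 and 0.77 in the same lungs. The part of adventitial fibroblasts was not tested.

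**Figure D4:**
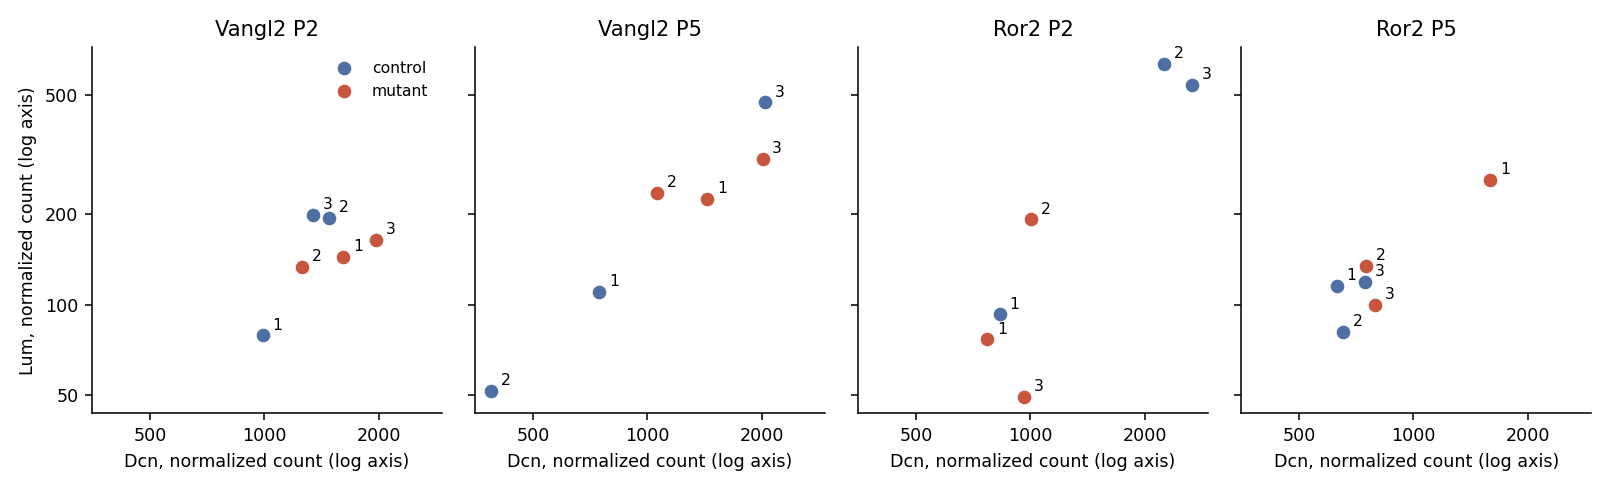
Lum against Dcn in each lung, as normalized counts on log axes, with controls in blue, mutants in red and replicate numbers beside the points. Lungs high in Dcn were mostly high in Lum, and controls 2 and 3 of the P2 Ror2 comparison and control 3 of the P5 Vangl2 comparison stand at the top right.

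The other members had nearest genes of different kinds, by the same measure over the same 23 lungs. Podn was nearest to Rspo1 (0.201) and Gpm6a (0.218), both on the mesothelial list fixed for this work, and then C2, and its own distance from controls was 0.454. Among mutants the order of Podn followed that of the mesothelial sum in the P2 Vangl2 comparison (sums of 12714, 7866 and 18100 for replicates 1 to 3). It also did so in the P2 Ror2 (8380, 6795 and 12350) and P5 Ror2 comparisons (7403, 2873 and 2495). In the P5 Vangl2 comparison it did not (7767, 9201 and 9540). Among controls the order was the same only in the P5 Vangl2 comparison. It was reversed in the P5 Ror2 controls (Podn 457, 663 and 526, sums 2970, 2695 and 2845). The sum holds Rspo1 itself, so part of any likeness is built in, and the part of mesothelial cells was not tested. Prelp was nearest to Kdr (0.175), the endothelial VEGF receptor, followed by Thsd1 and Zfp248. Bgn was nearest to Hhip (0.120), a gene of the myofibroblast list that binds Hedgehog ligands, followed by Loxl3 and Erc1. Ogn was nearest to Armcx4, Kctd12b and Sh3pxd2a, Fmod to Rps6ka2, Tiam2 and Hunk, Aspn to Ephb3, Ttl and Usp46, and Omd to Dpysl5, Nrip3 and Klf13. Lum had Ngfr and Ebf2, the latter on the adventitial list, after Dcn. Among members on different chromosomes, Bgn was the 20th nearest to Fmod and the 85th nearest to Ogn. In the other direction Fmod was the 1903rd and Ogn the 1363rd nearest to Bgn. Neighbours on a chromosome were not in general near each other by this measure: Omd was the 10798th nearest to Ogn, and Prelp the 1399th nearest to Fmod.

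**Figure D5:**
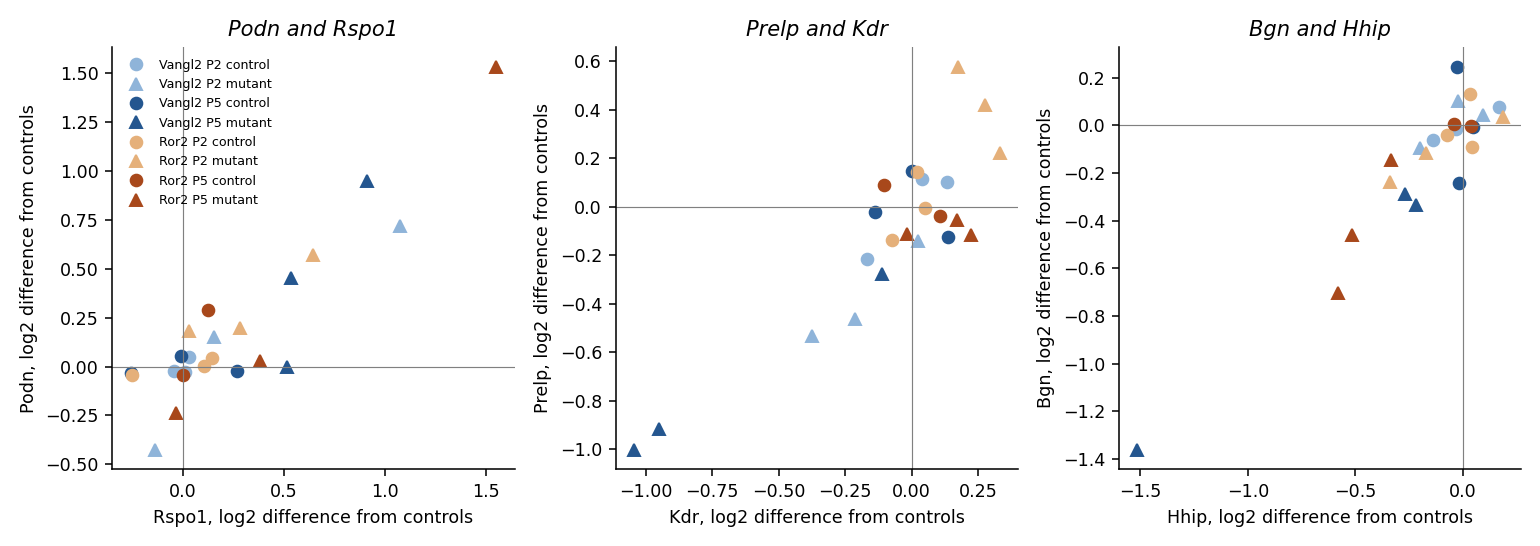
Log2 difference from the mean of the controls of the same table for Podn against Rspo1, Prelp against Kdr and Bgn against Hhip; circles are control lungs, triangles mutant lungs and colours the 4 comparisons. The highest Podn and Rspo1 both belong to 1 P5 Ror2 mutant, and the lowest Bgn and Hhip to 1 P5 Vangl2 mutant.

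Kdr moved in the same direction as Prelp in the P5 Vangl2 comparison, where it measured 11269.9, 10253 and 9323 in the control lungs and 9481, 5301 and 4970.1 in the mutant lungs (limma, -0.70 ± 0.25 SE, adjusted p = 0.2, and ± 0.16 with adjusted p = 0.0453 with the replicate block), and in the P2 Ror2 comparison, with 9445, 9252 and 8666 against 10295, 11046 and 11458 (0.26 ± 0.082 SE, adjusted p = 0.21). In the P5 Ror2 comparison Kdr did not follow Prelp. There Kdr stood at -0.019, 0.22 and 0.17 from the control mean in mutants 1 to 3, and Prelp at -0.11, -0.12 and -0.055. In P2 Vangl2 mutants Kdr stood at -0.21, 0.024 and -0.38 and Prelp at -0.46, -0.14 and -0.53. The sum of 6 endothelial markers was 66077 to 73187 in P5 Vangl2 controls and 37625 to 60688 in mutants, and 51437 to 63543 and 60829 to 71631 in the P2 Ror2 comparison. Hhip measured 5266, 4994 and 5019 in the control lungs and 4229, 4376 and 1781 in the mutant lungs at P5 in the Vangl2 comparison (-0.67 ± 0.32 SE, adjusted p = 0.31, and adjusted p = 0.13 with the replicate block). Kdr and Hhip were chosen for their likeness to the members. Neither passed the threshold without the block, and with it Kdr was called lower and Hhip was not called.

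The remaining 8 genes of the family, none of which the rule took in, gave 0 calls in limma without a replicate block in the 4 comparisons, with 1, 1, 0 and 2 at an unadjusted p under 0.05. Ecm2, the fourth gene of the chromosome 13 cluster, overlapped in all 4 comparisons, with differences between -0.43 in Vangl2 and 0.027 in Ror2 mutants at P5. Kera of the cornea and Epyc of cartilage, the neighbours of Lum, were at most 5.36 and 9.19 normalized counts in any lung. Optc of the eye, next to Prelp, Nyx of the retina and Podnl1, the closest relative of Podn, reached at most 27.8, 28.9 and 34.8. Tsku, a secreted modulator of BMP and Wnt signals, overlapped in all but the P5 Ror2 comparison (0.20 ± 0.12 SE, adjusted p = 0.43). Chad, a cartilage protein that binds integrins and collagen, was higher in every P5 mutant than in every control, with 347, 126 and 443 in the control lungs and 677, 601 and 793 in the mutant lungs for Vangl2 (1.35 ± 0.42 SE, adjusted p = 0.15) and 172, 90.4 and 182 against 279, 469 and 314 for Ror2 (1.28 ± 0.30 SE, adjusted p = 0.13). In the P2 Ror2 comparison Chad measured 226, 1170.0 and 838 against 463, 264 and 416, where controls 2 and 3, the lungs high in Dcn and Lum, were again the highest.

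Genes that build, anchor, cut or receive these proteoglycans were read from 4 further lists, of glycosaminoglycan assembly (30 genes), collagen fibril partners (18), proteoglycan cleavage (15) and growth factor and receptor partners (16). Together with the other family members, 2 of 84 tested (2.38%) were called in Vangl2 mutants at P2, both lower. Of all genes 2.09% were called lower there and 1.5% higher. In the other 3 comparisons 0 of 85, 0 of 83 and 0 of 83 were called. At an unadjusted p under 0.05 limma took in 29, 28, 21 and 21 of these genes. Of all genes it took in 3921 of 17448, 3270 of 17410, 3380 of 17541 and 3160 of 17179. Col1a1, the main fibril collagen that decorin and fibromodulin bind, measured 30992, 35557 and 31906 in the control lungs and 19969, 19777 and 23385 in the mutant lungs at P2 (-0.64 ± 0.13 SE, adjusted p = 0.039). Col6a3, of the beaded collagen that binds biglycan and decorin, measured 15545, 16339 and 13174 in the control lungs and 9678, 9573 and 9485 in the mutant lungs (-0.64 ± 0.11 SE, adjusted p = 0.033). For both genes the groups did not overlap, while those of Bgn and Dcn overlapped in the same lungs. Without control replicate 1, 2 or 3 or mutant replicate 2 the number called among the genes of these lists was 0, and without mutant replicate 3 it was 19. The share of all genes called in those settings is not given here, so nothing is read from these numbers.

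The labels name no pairing of lungs. In the P5 Vangl2 comparison the replicate number was used as a block because same-numbered lungs deviated together there. Since these data chose the block, its calls hold only if that pairing does. Without it 0 of 85 genes of these lists were called, beside 0.0287% of all genes called lower and 0.534% higher. With the replicate block 17 of 85 were called, beside 3.48% of all genes called lower and 5.47% higher, while 0 of the 9 members were called. Of the 30 assembly genes 4 were lower and 1 was higher. Xylt1, which starts the sulfated chains, was lower at -1.07 ± 0.20 (SE, adjusted p = 0.029). Dse, which turns chondroitin into dermatan sulfate, was lower at -0.54 ± 0.12 (SE, adjusted p = 0.038), and Chst11, a chondroitin sulfotransferase, at -0.57 ± 0.13 (SE, adjusted p = 0.043). Among collagen partners 2 genes were lower, Col12a1 at -0.67 ± 0.15 (SE, adjusted p = 0.039) and Col6a3 at -0.79 ± 0.19 (SE, adjusted p = 0.0484). Among cleavage genes 3 were lower and 1 higher, with Adamts5, which cleaves aggrecan and related proteoglycans, at -1.08 ± 0.18 (SE, adjusted p = 0.023), Adamts4 at -1.24 ± 0.28 (SE, adjusted p = 0.042) and Mmp9 at 1.38 ± 0.26 (SE, adjusted p = 0.028). Of the growth factor and receptor genes 3 were lower and 2 higher, among them Tgfb3 at -0.82 ± 0.16 (SE, adjusted p = 0.031), Tlr2, a receptor for free biglycan, at 1.17 ± 0.18 (SE, adjusted p = 0.018), and P2rx7, which acts with it, at -0.55 ± 0.12 (SE, adjusted p = 0.038). Chad was the only family gene called in this fit, at 1.35 ± 0.27 (SE, adjusted p = 0.032).

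Marker lists differed between the same groups. Of 14 alveolar and matrix fibroblast markers the sum was lower in every mutant than in every control in both Vangl2 comparisons (109479 to 121620 against 128881 to 134708 at P2, and 105061 to 146711 against 172282 to 195792 at P5), with 0 genes called at either age without the replicate block. Mfap4, a microfibril protein, alone gave 59881 to 63690 of the P2 sum in controls and 31720 to 47815 in mutants (limma, -0.65 ± 0.17 SE, adjusted p = 0.084). Single markers went both ways, with 4 higher and 5 lower at an unadjusted p under 0.05 at P2 (median log2 difference of 0.094) and 3 higher and 7 lower at P5 (-0.43). The 13 adventitial fibroblast markers likewise summed to 33167 to 34584 in controls and 24889 to 28521 in mutants at P2 and to 37378 to 41618 and 23070 to 33274 at P5 in the Vangl2 comparisons, where Dpt, a small matrix protein that binds decorin, was called lower at P2 (-1.07 ± 0.16 SE, adjusted p = 0.029). This list too went both ways, with 3 higher and 3 lower at an unadjusted p under 0.05 at P2 (median of -0.011) and 2 higher and 3 lower at P5 (0.067). Lung epithelial markers were higher in every Vangl2 mutant, with 541506 to 638376 against 414953 to 496772 at P2 and 408852 to 557656 against 214800 to 367808 at P5, and Sftpa1 (1.89 ± 0.34 SE, adjusted p = 0.033) and Hopx (0.75 ± 0.15 SE, adjusted p = 0.044) were called at P2. Myh11, a smooth muscle myosin, was lower in Vangl2 mutants at P2 (-0.48 ± 0.09 SE, adjusted p = 0.034), C1qa, made by macrophages, was higher there (0.59 ± 0.13 SE, adjusted p = 0.0498), and Stc1 of the myofibroblast list was lower in Ror2 mutants at P5 (-1.04 ± 0.10 SE, adjusted p = 0.031). Of the cartilage, cardiac muscle, mesothelial and endothelial lists 0 genes were called by limma in the 4 comparisons without the block, with 7, 1, 7 and 7 at an unadjusted p under 0.05 over all 4.

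With the replicate block in the P5 Vangl2 comparison, fibroblast markers were called in both directions. Of the 14 alveolar and matrix fibroblast markers 2 were lower and 2 higher: Pdgfra, a receptor of alveolar fibroblasts, was lower at -0.88 ± 0.14 (SE, adjusted p = 0.019), as was Gyg, while Ces1d was higher at 0.66 ± 0.10 (SE, adjusted p = 0.019), and so was Plin2, a lipid droplet protein, at 0.61 ± 0.12 (SE, adjusted p = 0.03). Of the 13 adventitial markers Igfbp6, which binds insulin-like growth factors, was higher at 1.01 ± 0.15 (SE, adjusted p = 0.018) and Cd248, a surface protein of stromal cells, was lower at -1.26 ± 0.21 (SE, adjusted p = 0.022). All 3 called myofibroblast markers of 13, Stc1, Myocd and Fgf18, were lower, with Stc1 at -1.24 ± 0.16 (SE, adjusted p = 0.013). Of the 6 endothelial markers Kdr was called, lower. Higher were 4 of 9 epithelial markers, led by Sftpa1 at 0.88 ± 0.15 (SE, adjusted p = 0.022), 4 of 6 macrophage markers, led by Cd68 at 0.89 ± 0.14 (SE, adjusted p = 0.019), and the mesothelial Msln at 0.98 ± 0.16 (SE, adjusted p = 0.022). Of 11 cartilage and 7 cardiac muscle markers 0 were called by limma with the block, with 6 and 1 at an unadjusted p under 0.05. The part of these cell types in the differences of the 9 members was not tested.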

How the data were processed

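RNA of the left lung lobe was sequenced by the authors with Illumina libraries and mapped to the mouse build mm10, per the labels, and DESeq2 is the tool their processing notes name; the aligner and counter are not given in the sources used here. The signal values the authors deposited are normalized counts, that is whole reads scaled by 1 size factor per lung so that the 6 lungs of a table can be compared. The authors' own comparison columns in each table (mean, log2 fold change, its error, statistic, p-value and adjusted p-value) were not used. Sequences and gene positions came from GENCODE on GRCm38, the same build.

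Genes that reached a normalized count of 1 in 3 or more of the 6 lungs were tested with limma 3.58.1 (R 4.3.3; lmFit, eBayes with trend) on log2(normalized count + 1), separately in each table, with Benjamini-Hochberg adjustment over all genes and a threshold of 0.05. Differences are on that scale, which understates those of low genes such as Omd. The procedure was tested on simulated data with independent lungs and the same dispersion for all genes. That run does not cover lungs that deviate together or genes that vary as widely as Lum. In the P5 Vangl2 comparison same-numbered lungs deviated together (correlations of 0.38, 0.34 and 0.24), and the fit with a replicate block is given there. The labels name no such pairing, and the block was chosen on these data. Labels do not say whether lungs came from separate litters, so p-values measure the spread between these lungs. Alternatives were edgeR 4.0.16 and DESeq2 1.42.0 on recovered reads (P2 tables), other pseudocounts, filters and scalings, and leaving out each lung.

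The members and lists were chosen with earlier results of these data known. Named were all 9 members, the other 8 family genes, at most 3 genes of each list per comparison with the lowest adjusted p, the 3 genes nearest to each member, and the targeted genes; the same rule was applied to the fit with the block. Marker lists held 10 to 14 genes for 5 cell types and 6 to 9 for the other 4.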

Additional observations from a re-analysis of the deposited data

Results flagged for a closer look

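Prelp differed in direction between the ages in Ror2 mutants, with every P2 mutant above every P2 control (log2 difference of 0.41) and every P5 mutant below every P5 control (-0.095). The difference between the ages was not tested.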

How the results depend on the processing

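Of 477 values of the members' log2 differences under the alternatives, most had little room to move. The filters, and the replicate block in groups of 3 and 3, left each member's difference as it was. Leaving out 1 lung of 3 cannot shift a mean by the full spread between lungs. Even so, it turned the sign of some differences, such as Podn in Ror2 mutants at P5 (0.44 to -0.11). With these limits, 476 of the 477 values moved by less than that spread and 0 reversed a called value. The exception was Bgn in the P5 Ror2 comparison, at 4.57 when the missing values of control replicate 1 were kept as deposited. In that setting the members' median was 0.24 and 0 members were called, and with the replicate block 0 members were called there in place of 1. Leaving out single lungs moved the members' median from -0.015 to 0.17 in Vangl2 mutants at P2, -0.44 to -0.072 in Vangl2 mutants at P5, -0.065 to 0.11 in Ror2 mutants at P2 and -0.10 to 0.16 in Ror2 mutants at P5, where 0 to 1 members were called. The number of called genes in the partner lists ranged from 0 to 19 in Vangl2 mutants at P2, 0 to 1 in Vangl2 mutants at P5, 0 to 4 in Ror2 mutants at P2 and 0 to 5 in Ror2 mutants at P5. It was 6 and 1 in Vangl2 mutants at P2 and P5 with library totals as the scaling, and 17 with the replicate block in Vangl2 mutants at P5. With DESeq2 it was 22 and 4 in Vangl2 and Ror2 mutants at P2, beside 2001 of 15391 and 794 of 13794 genes in all. The causes were not tested. Same-numbered lungs correlated between -0.085 and 0.21 in the other 3 comparisons, where the replicate block changed no call but that of Ogn and added 1 partner gene in Vangl2 mutants at P2. Count-based tests were not run on the P5 tables because reads could not be recovered by the rule used in 3 lungs. Omd had few reads, and each group had 3 lungs.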
